A study of Mus musculus with 4 samples.

Results

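The genes described here are 9 genes of the sperm tail and midpiece, ODF1, ODF2, ODF3, ODF4, SMCP, OAZ3, CABS1, GPX4 and TCP11, taken as a named list from 25825 gene symbols in the count tables. All 9 had a row in the tables. They were measured by single cell RNA-seq of testis cells from 2 wild type (WT) mice and 2 Ctcf-cKO mice, named after the sample labels as replicates 1 and 2 of WT and replicates 1 and 3 of Ctcf-cKO. The labels give the strain as C56BL/6J and the age as 15 weeks for every mouse, the genotype Ctcf wt/wt for WT and Stra8-iCre-Ctcf f/Δ for Ctcf-cKO, while the study's methods allow floxed littermates without Cre among the WT. Stra8-iCre deletes Ctcf in germ cells as they enter differentiation, so somatic cells of the testis keep their floxed copy of the gene. Deletion need not reach every germ cell. Each mouse gave a single library, filtrates of separate tubes were pooled for a Ctcf-cKO mouse, and no label names a batch, so that library preparation and genotype cannot be told apart.

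Outer dense fibres are stiff rods that lie alongside the axoneme, the microtubule core of the sperm tail, and they protect the tail against shear. In the midpiece they are wrapped by the mitochondrial sheath, a helix of mitochondria whose outer capsule is rich in cysteine and selenium. The messenger RNAs for these structures are made in haploid spermatids, and many of them, Smcp among others, are stored before they are translated in elongating spermatids. ODF1 and ODF2 are the main proteins of the fibres, and ODF2 is also a centriole protein. ODF3 and ODF4 are further proteins of the sperm tail. SMCP is a cysteine-rich protein of the mitochondrial capsule, and GPX4 is a selenium enzyme that reduces lipid peroxides and becomes a structural part of that capsule. OAZ3 is the testis form of antizyme, an inhibitor of polyamine synthesis, and is needed for the joint between head and tail. CABS1 is a calcium-binding protein of spermatids, and TCP11 is a protein of the t-complex that acts in sperm motility.

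Ctcf itself, listed as CTCF, had 110 and 49 counts in WT and only 4 and 7 in Ctcf-cKO, each pair of values here and below being in the order of the replicate numbers, which is 16.4 and 10.1 against 1.51 and 4.39 CPM, that is, counts scaled to an equal total. The libraries held 1593546 to 6701235 counts, and both Ctcf-cKO libraries were shallower than both WT libraries. A total of 811 barcodes were taken as cells, 96 and 241 in WT and 228 and 246 in Ctcf-cKO, with median counts of 15357, 8251, 4668 and 2338 in the same order. WT replicate 2 and Ctcf-cKO replicate 1 shared 1 barcode, and no other pair of libraries shared any. Cells were clustered without the members among the variable genes. Clusters were then read as spermatocyte-like (64 cells, 14 markers of that cell type higher), early spermatid-like (2 clusters with 13 and 18 round spermatid markers), mid spermatid-like (117 cells, 12 elongating spermatid markers) and late spermatid-like (148 cells, 5 elongating spermatid markers). Late cells had a median of 2073 counts, the lowest of all clusters, against 7948 in mid cells. They numbered 27 and 14 in WT and 43 and 64 in Ctcf-cKO. The order of mid and late was given to the clusters after they were seen, and the median pseudotime of late cells was above that of mid cells in 3 of 4 mice, WT replicate 1 being the exception with 0.844 against 0.855. Somatic-like cells, the name used for Leydig-like, macrophage-like, peritubular-like and Sertoli-like clusters together, numbered 10 and 6 in WT and 50 and 85 in Ctcf-cKO, so germ cells were not the only cells captured. The value 4 made up 11.5% of the non-zero values in each WT table and 29.97% and 23.1% in the Ctcf-cKO tables, and the part of this difference in the results was not tested. The 130 cells of 1 cluster had no named markers higher and were left unnamed.

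Before their levels, the promoters of the members that carry a CTCF-like motif are shown, because CTCF is the protein removed in these mice. RefSeq start sites on GRCm38.p6 gave 15 promoter sequences for 7 members, while ODF1 and OAZ3 were not matched. The core of the CTCF consensus, read as CCA, any 2 bases, AG, any 2 bases and GGC and searched on both strands from 250 bases before to 50 bases after the start, was found for ODF2, ODF4 and SMCP, and in 2.43% of all 32851 promoters of this length. That share is of promoter sequences and not of genes, so it is not comparable with a number of members. The match began 71 bases before the start shown for ODF2, 107 in ODF4 and 35 in SMCP, each time on the strand of the gene. ODF2 had 4 start sites. The same match lay 168 bases before another of them, and the remaining sites had none. A stricter form of the CTCF consensus was found in none of the 15 and in 0.557% of all promoters. The cyclic AMP response element TGACGTCA was found in none of the 15 and in 1.79% of all promoters. The matched letters are in capitals, and ODF3 is shown as a member without a match. CABS1, GPX4 and TCP11 had no match either. Of these, CABS1 and TCP11 were higher in late than in early spermatid-like cells, as were ODF2 and SMCP. ODF4, with a match, had no order over the stages that the mice shared. A match is a run of letters only, and binding was not measured here. The windows run from 150 bases before the start to the start, each on the strand of its gene, and they are chr2:29889570-29889720 for ODF2, chr11:68927081-68927231 for ODF4, chr3:92589073-92589223 for SMCP and chr7:140847766-140847916 for ODF3.
ODF2: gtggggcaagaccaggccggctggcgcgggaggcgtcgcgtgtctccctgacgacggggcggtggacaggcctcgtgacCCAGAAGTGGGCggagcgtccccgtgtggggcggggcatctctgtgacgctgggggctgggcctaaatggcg
ODF4: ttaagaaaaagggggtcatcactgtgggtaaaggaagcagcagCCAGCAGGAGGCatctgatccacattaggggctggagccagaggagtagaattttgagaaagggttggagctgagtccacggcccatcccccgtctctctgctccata
SMCP: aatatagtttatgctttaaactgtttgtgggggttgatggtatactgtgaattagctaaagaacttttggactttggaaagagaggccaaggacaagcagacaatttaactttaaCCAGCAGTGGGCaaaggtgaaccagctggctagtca
ODF3: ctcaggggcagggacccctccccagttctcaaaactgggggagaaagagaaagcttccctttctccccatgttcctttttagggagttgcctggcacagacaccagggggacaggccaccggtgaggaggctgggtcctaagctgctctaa

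Across the spermatid stages, ODF1, ODF2, SMCP, OAZ3, CABS1 and TCP11 had higher levels in late than in early spermatid-like cells in 4 of 4 mice, and higher levels in mid than in early in 4 of 4. Their mean level over the 4 mice was 2.04 (TCP11) to 3.93 (CABS1) times as high in late as in early. ODF3 ran the other way in 4 of 4 mice, with 0.193 times the early level in late cells. ODF4 went in opposite directions in the genotypes, its late level being 1.29 and 2.13 times the early level in WT and 0.895 and 0.667 times in Ctcf-cKO. That late level was close to free RNA in WT replicate 1 and Ctcf-cKO replicate 1, as given below. These are descriptions without a test, since the stages were defined from the same cells. Levels are CPM of the counts summed over the cells of a mouse and class, sums of 92503 to 1600999 counts from 12 to 137 cells. The reads come from the 3′ end of transcripts, and levels are therefore compared between cells and not between genes.

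**Figure D1:**
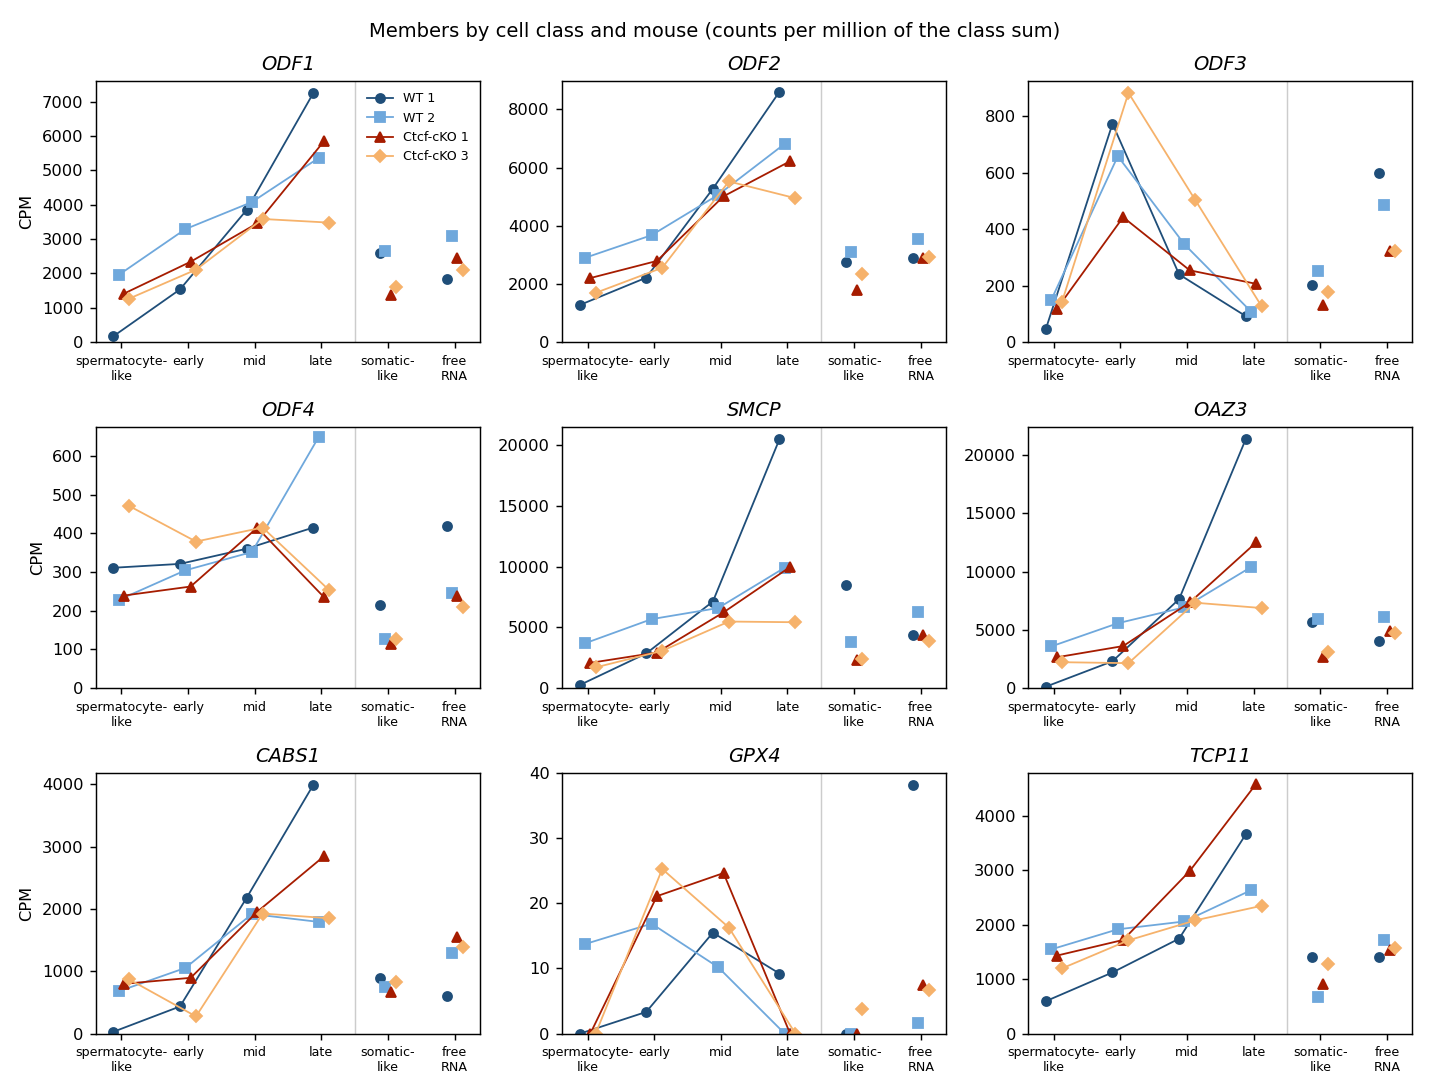
Level of each member (y axis, CPM of the class sum, linear and from 0) in spermatocyte-like, early, mid and late spermatid-like cells and, right of the grey line, in somatic-like cells and free RNA (x axis), with 1 panel per gene and 1 symbol per mouse. ODF1, ODF2, SMCP, OAZ3, CABS1 and TCP11 are higher in late than in early cells in every mouse, ODF3 is highest in early cells in every mouse, and the late levels of SMCP and OAZ3 in WT replicate 1 stand above those of the other mice.

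ODF1 (ENSMUSG00000061923, 2 exons, GRCm38 chr15:38219203-38226735, forward strand) stood at 1536 and 3291 CPM in early cells of WT and at 2342 and 2112 CPM in those of Ctcf-cKO. In late cells it stood at 7252 and 5362 CPM in WT and at 5851 and 3481 CPM in Ctcf-cKO. The lowest late value lay above the highest early value, and WT replicate 1 held both the lowest early and the highest late level. ODF2 (ENSMUSG00000026790, chr2:29889221-29931746, forward strand) had 2216 and 3676 CPM in early cells of WT and 2792 and 2558 CPM in those of Ctcf-cKO. Its late levels were 8610 and 6821 CPM in WT and 6221 and 4948 CPM in Ctcf-cKO. For both fibre genes the mid levels, 3463 to 4081 CPM for ODF1 and 5014 to 5524 CPM for ODF2, were closer together among mice than the early or late levels. Both genes were lower in late than in mid cells of Ctcf-cKO replicate 3, with ratios of 0.970 and 0.896, and higher in the other 3 mice.

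ODF3 (ENSMUSG00000025482, chr7:140847805-140851018, forward strand) lies within Gm45785, a gene on the other strand that has no row in the tables. Its early levels were 774 and 659 CPM in WT and 443 and 883 CPM in Ctcf-cKO. Its late levels were 92.2 and 108 CPM in WT and 206 and 126 CPM in Ctcf-cKO, so that the early, mid and late ranges followed each other downwards, early and mid overlapping and late apart from both. In spermatocyte-like cells it stood at 46.6 to 149 CPM, below the early level in every mouse, which makes the early class the peak of ODF3. When each cell was thinned to 900 counts, 8 of 16 and 34.3% of early cells in WT and 30.6% and 16.7% in Ctcf-cKO had an ODF3 count. The same share was 18.5% and 14.3% of late cells in WT and 14.0% and 10.9% in Ctcf-cKO. Somatic-like cells, which are not known to use the gene, had 0 of 10 and 0 of 6 cells with a count in WT (exact binomial upper limits of 30.8% and 45.9%) and 6.0% and 14.1% in Ctcf-cKO. Without thinning, the early share was 100% and 83.9% in WT and 66.7% and 33.3% in Ctcf-cKO, and the somatic-like share 3 of 10 cells and 33.3% in WT and 10 of 50 cells and 18.8% in Ctcf-cKO. The thinned late share was above that of somatic-like cells in Ctcf-cKO replicate 1 and not above it in Ctcf-cKO replicate 3.

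ODF4 (ENSMUSG00000032921, chr11:68921835-68927081, reverse strand) had no order over the stages that the 4 mice shared. Its early levels were 321 and 304 CPM in WT and 262 and 379 CPM in Ctcf-cKO, and its late levels 415 and 649 CPM in WT and 235 and 253 CPM in Ctcf-cKO. The gene was thus higher in late than in early cells in both WT mice and lower in both Ctcf-cKO mice. The difference between the genotypes in this step is tested further on. Late ODF4 levels rested on few counts, 33 and 36 for the Ctcf-cKO mice against 135 and 60 for the WT mice. Relative to free RNA (barcodes with under 200 genes) they were at 0.990 (WT replicate 1), 2.64 (WT replicate 2), 0.992 (Ctcf-cKO replicate 1) and 1.20 (Ctcf-cKO replicate 3). Only WT replicate 2 was thus far above free RNA in late cells.

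SMCP (ENSMUSG00000074435, chr3:92583867-92588997, reverse strand) and OAZ3 (ENSMUSG00000028141, chr3:94432414-94443915, reverse strand) lie 1843416 bases apart on the same chromosome. SMCP had 2844 and 5673 CPM in early cells of WT and 2920 and 3062 CPM in those of Ctcf-cKO. Its late levels were 20520 and 9924 CPM in WT and 9979 and 5418 CPM in Ctcf-cKO. The late level of WT replicate 1 was thus far above the other mice, and the early and late ranges overlapped because the early level of WT replicate 2 passed the late level of Ctcf-cKO replicate 3. OAZ3 had 2291 and 5558 CPM in early cells of WT and 3597 and 2129 CPM in those of Ctcf-cKO. Its late levels were 21371 and 10389 CPM in WT and 12520 and 6864 CPM in Ctcf-cKO, again highest in WT replicate 1 and lowest in Ctcf-cKO replicate 3. In mid cells OAZ3 was nearly the same in the 4 mice, at 6929 to 7633 CPM, and SMCP stood at 5475 to 7126 CPM. Together SMCP and OAZ3 gave 4.19% and 2.03% of all counts of late cells in WT and 2.25% and 1.23% in Ctcf-cKO. OAZ3 was among the 10 leading genes of the late cluster, although it was not used to form it. The ends of the Oaz3 gene overlap Tdrkh and Mrpl9 on the other strand, which held 84 to 365 and 16 to 45 counts in whole libraries.

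CABS1 (ENSMUSG00000007907, chr5:87979439-87981544, forward strand) had 438 and 1056 CPM in early cells of WT and 897 and 278 CPM in those of Ctcf-cKO. Its late levels were 3991 and 1795 CPM in WT and 2847 and 1853 CPM in Ctcf-cKO, all above every early level. From mid to late it was higher in WT replicate 1 and Ctcf-cKO replicate 1 and slightly lower in the other mice, so its main step lay between early and mid, where mid cells had 1921 to 2181 CPM. TCP11 (ENSMUSG00000062859, chr17:28066745-28080639, reverse strand) had 1126 and 1919 CPM in early cells of WT and 1724 and 1716 CPM in those of Ctcf-cKO. Its late levels were 3663 and 2638 CPM in WT and 4598 and 2351 CPM in Ctcf-cKO, and it was the only member higher in late than in mid cells in 4 of 4 mice. Cabs1 lies within Gm28434 of the same strand, which has no row in the tables, and Tcp11 overlaps 4930526A20Rik of the same strand, which had 54 to 260 counts in whole libraries.

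Neighbouring stages did not separate as well as early from late. The mid and late ranges over the 4 mice overlapped for ODF1, ODF2, ODF4, SMCP, OAZ3, CABS1 and TCP11, and the early and mid ranges overlapped for ODF3, ODF4, SMCP, GPX4 and TCP11. The early and late ranges were apart for ODF1, ODF2, ODF3, OAZ3, CABS1 and TCP11. With the 2 variable members kept in clustering, or with free RNA subtracted, ODF1, ODF2, SMCP, OAZ3, CABS1 and TCP11 still had their highest mean in late cells, and ODF4 then had it in mid cells.

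All 9 members together gave 2.69% to 2.84% of the counts of mid cells in the 4 mice, a narrow range. In late cells they gave 6.59% and 3.77% in WT and 4.25% and 2.53% in Ctcf-cKO, which spread widely and overlapped between genotypes. Early cells had 1.15% and 2.22% in WT and lay between these values in Ctcf-cKO, and spermatocyte-like cells had 0.277% to 1.47%. The somatic-like cells, which are not known to use most of these genes, ODF2 and GPX4 aside, had 0.992% to 2.22% of their counts in the members. Barcodes with under 200 genes, taken as free RNA of the suspension, had 1.62% to 2.27%. They numbered 1367 and 4392 in WT and 5592 and 6114 in Ctcf-cKO. Their counts were 104983 and 590328 in WT and 1081040 and 748090 in Ctcf-cKO, so this limit took unlike parts of the libraries. The members' summed counts in early and spermatocyte-like cells were therefore no higher than in free RNA, although ODF3 by itself was above free RNA in early cells of 4 of 4 mice. ODF1, ODF2, SMCP, OAZ3, CABS1 and TCP11 were above free RNA in late cells of 4 of 4 mice, while in early cells SMCP, OAZ3 and CABS1 were below free RNA in 4 of 4 mice.

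**Figure D2:**
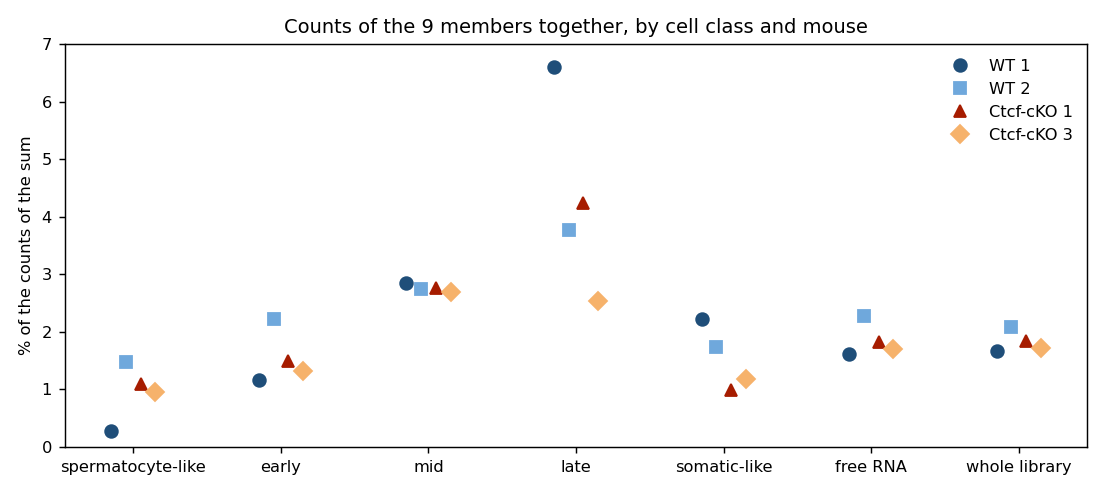
Share of all counts that belong to the 9 members together (y axis, %) in each cell class, in free RNA and in the whole library (x axis), with 1 point per mouse. Mid cells sit between 2.69% and 2.84% in the 4 mice, late cells spread from 2.53% to 6.59%, and somatic-like cells and free RNA sit near early cells.

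Single cells gave the same background. After thinning to 900 counts, 100% of mid cells in each of the 4 mice had an SMCP count, but so did 60.0% and 66.7% of somatic-like cells in WT and 56.0% and 68.2% in Ctcf-cKO. Without thinning the somatic-like shares were 70.0% and 83.3% in WT and 68.0% and 77.6% in Ctcf-cKO, and no cell was too shallow for the thinning. Detection of SMCP or OAZ3 in a cell was thus not specific to spermatids in these libraries.

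Most of the members' patterns were close to each other over the 16 sums of 4 mice and 4 classes from spermatocyte-like to late. Those of GPX4, ODF3 and ODF4 were not. Pearson's r of log2(CPM + 10) with the mean of the other members was 0.960 for ODF1, 0.945 for SMCP, 0.931 for OAZ3, 0.858 for ODF2, 0.853 for CABS1 and 0.831 for TCP11. It was 0.305 for GPX4, 0.229 for ODF3 and 0.188 for ODF4. The sums share mice, libraries and depth, and no test was made. Among 3983 other genes with at least 200 counts in these sums, the 5 most similar to the members' mean were OTUB2 and SPA17 (both r = 0.976), 1700009N14RIK (0.962), ATL3 (0.960) and ST6GALNAC2 (0.958). SPA17, a protein of the fibrous sheath, had 1564 to 2299 CPM in early and 1846 to 3380 CPM in late cells. ATL3 had 281 to 597 CPM in early and 561 to 2096 CPM in late cells, and OTUB2 was higher on average in mid (1544 CPM) than in late cells (1309 CPM).

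The main question of the design was whether these genes differ between Ctcf-cKO and WT within a stage. In early, mid, late and all spermatid-like cells, 0 of the members passed an adjusted p of 0.05 in edgeR (quasi-likelihood test, Benjamini-Hochberg adjustment over all genes tested), and 0 had an unadjusted p under 0.05. DESeq2 called 0 as well. Of all genes tested, 0.0% passed in early, 4.72% in mid, 8.77% in late and 4.54% in all spermatid-like cells, so the fit did call genes in the later stages. With 2 mice per genotype the intervals were wide, and differences of the size of the standard errors below were not detectable.

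In early cells, log2 differences (Ctcf-cKO over WT) were below 0 for 7 of 9 members, where 53.1% of all genes were below 0. They ran from -0.66 ± 0.45 (SE) for SMCP to 0.92 ± 1.27 for GPX4, each with an adjusted p of 0.998 in edgeR. With free RNA subtracted the values were -3.28 for CABS1, -1.44 for OAZ3 and -1.37 for SMCP. In that fit 0.0% of all genes tested passed the threshold, so the lack of a member past it tells nothing about the members. The CPM of the genotypes overlapped for all members but GPX4, which rested on 2 to 27 counts, where 32.7% of all genes were apart. Most early cells of WT replicate 2 and Ctcf-cKO replicates 1 and 3 lay in one of the 2 early clusters, while 12 of 16 early cells of WT replicate 1 lay in the other.

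In mid cells the members were closest between genotypes. OAZ3 and ODF2 had log2 differences of -0.042 ± 0.18 and -0.024 ± 0.19, from OAZ3 levels of 7633 and 6929 CPM in WT and 7344 and 7322 CPM in Ctcf-cKO. SMCP stood at 7126 and 6593 CPM in WT and at 6232 and 5475 CPM in Ctcf-cKO. Both Ctcf-cKO mice were below both WT mice, at -0.28 ± 0.19 on the log2 scale (adjusted p = 0.516, edgeR). ODF1, at 3850 and 4081 CPM in WT and 3463 and 3588 CPM in Ctcf-cKO, was likewise apart (-0.22 ± 0.19, adjusted p = 0.644, edgeR). TCP11, with 1747 and 2063 CPM in WT and 2991 and 2083 CPM in Ctcf-cKO, was apart the other way, at 0.38 ± 0.23 (adjusted p = 0.460, edgeR). ODF4 was also higher in both Ctcf-cKO mice, by 0.17 ± 0.28. The 4 members that were apart among 8 tested compare with 47.5% of all genes. Without WT replicate 2, SMCP passed the test in mid cells (-0.54, adjusted p = 0.0098, edgeR), as did 2.53% of all genes in the same direction, in a fit that takes the lone WT mouse to vary like the others. With free RNA subtracted, ODF3 (1.89), TCP11 (1.05) and ODF4 (0.99) moved up in mid cells, in a fit where 0.0% of all genes tested passed.

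In late cells 6 of 8 members tested had log2 differences below 0, against 49.0% of all genes, and their median was -0.51 against 0.025 over all genes tested. ODF4 had the largest difference, from 415 and 649 CPM in WT to 235 and 253 CPM in Ctcf-cKO, which is -1.16 ± 0.57 on the log2 scale (adjusted p = 0.326, edgeR). SMCP followed at -1.05 ± 0.82 (adjusted p = 0.642, edgeR) and OAZ3 at -0.78 ± 0.83 (adjusted p = 0.762, edgeR). For both genes the Ctcf-cKO replicate 1 level was above that of WT replicate 2, so the genotypes overlapped. ODF2 was apart with both Ctcf-cKO mice lower, at -0.53 ± 0.69 (adjusted p = 0.811, edgeR), and ODF3 was apart with both higher, at 0.69 ± 0.71 (adjusted p = 0.750, edgeR). ODF1 (-0.49), CABS1 (-0.37) and TCP11 (0.087) overlapped. With free RNA subtracted ODF4 was at -2.56 and TCP11 at 0.68, while ODF1 (-0.030) and ODF2 (-0.076) were close to 0. In that fit 0.0% of all genes tested passed. Of all genes tested in late cells, 45.0% were apart between genotypes, and of the 167 that passed the test 166 (8.72% of those tested) were higher in Ctcf-cKO.

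**Figure D3:**
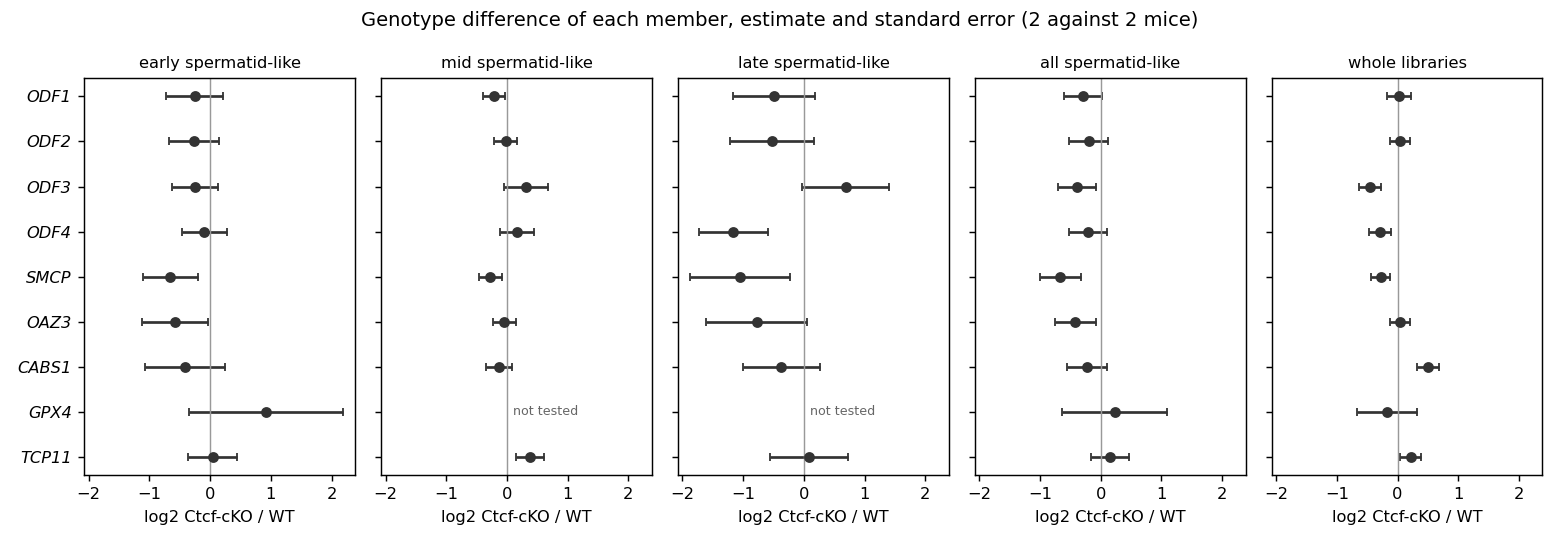
Log2 of Ctcf-cKO over WT (x axis) for each member (y axis), with 1 panel per comparison. The panels are early, mid, late and all spermatid-like cells and whole libraries. Points have bars of ± 1 standard error, derived from the edgeR F statistic, 2 against 2 mice. Bars are long in late cells, where ODF4 (-1.16) and SMCP (-1.05) lie farthest below 0, and short in mid cells and whole libraries, where CABS1 (0.50) and ODF3 (-0.46) lie on opposite sides of 0. GPX4 was too low to be tested in mid and late cells.

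Markers of other cell types moved with genotype in the same late sums. Markers of Leydig cells, Sertoli cells, macrophages, peritubular cells, endothelial cells and red blood cells together gave 0.0344% and 0.0281% of the counts of late cells in WT and 1.59% and 0.958% in Ctcf-cKO. Leydig markers summed to 3.07 and 10.8 CPM in WT, where 10 of 12 were at 0 in both mice, and to 1872 and 2730 CPM in Ctcf-cKO, where 11 were detected in each. Red blood cell markers were at 0 in both WT mice and at 9075 and 1130 CPM in Ctcf-cKO. In mid cells the same markers together gave 0.0297% and 0.0530% in WT and 1.18% and 0.725% in Ctcf-cKO. In the free RNA of the same libraries they gave 0.0629% and 0.105% in WT and 0.964% and 0.997% in Ctcf-cKO. Their share in late cells was thus 54.7% and 26.8% of that in free RNA in WT and 165% and 96.1% in Ctcf-cKO, and where it passes 100%, as in Ctcf-cKO replicate 1, it gives no estimate of free RNA. Their part in the members' differences was not tested. Elongating spermatid markers were detected in full, 14 of 14, in late cells of every mouse, and equally in early and mid cells. Their detection therefore does not tell the classes apart, and 5 of them were higher in the late cluster.

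Whether the genotype difference itself changed between stages was tested in a joint fit of 5062 genes over the 3 spermatid classes. None of the 8 members tested passed for mid minus early, late minus early or late minus mid, where 0.0%, 0.079% and 0.0198% of all genes did, in that order. ODF4 came nearest, with a genotype difference that was lower in late than in mid cells by -1.44 ± 0.79 on the log2 scale (adjusted p = 0.989, edgeR) and lower in late than in early cells by -1.27 ± 0.79 (adjusted p = 0.951, edgeR). The opposite steps of ODF4 in WT and Ctcf-cKO mice were therefore not distinguishable from the spread between mice.

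Over all spermatid-like cells together, SMCP was lower in both Ctcf-cKO mice than in both WT mice, at -0.66 ± 0.34 (adjusted p = 0.364, edgeR). ODF1 was apart in the same direction (-0.29 ± 0.31) and TCP11 in the other (0.15 ± 0.31), where 43.3% of all genes were apart. Stage composition differs between the mice in this sum, early cells being 137 of the spermatid-like cells in WT replicate 2 and 12 in Ctcf-cKO replicate 3. Without WT replicate 2, 4 members were lower in Ctcf-cKO past the threshold (SMCP -0.98, OAZ3 -0.75, CABS1 -0.63 and ODF2 -0.44), as were 2.44% of all genes in that fit, and 5.08% were higher. With free RNA subtracted SMCP was at -1.26 and CABS1 at -2.001, in a fit where 0.0% of all genes tested passed the threshold.

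Whole libraries, with all barcodes summed per mouse, gave the deepest counts. In such sums fewer cells of a type and less RNA per cell cannot be told apart. None of the 9 members passed an adjusted p of 0.05 in edgeR, while 28.5% of all genes did, 18.4% higher and 10.1% lower in Ctcf-cKO. By an unadjusted p, 2 members were under 0.05. CABS1 was higher in both Ctcf-cKO mice, with 866 and 1104 CPM in WT and 1384 and 1281 CPM in Ctcf-cKO, or 0.50 ± 0.18 on the log2 scale (adjusted p = 0.058, edgeR). ODF3 was lower in both, with 425 and 470 CPM in WT and 296 and 328 CPM in Ctcf-cKO, or -0.46 ± 0.18 (adjusted p = 0.081, edgeR). Both lay close to the threshold, and each passed it under some settings, ODF3 with library totals alone (-0.52, adjusted p = 0.042, edgeR) and CABS1 with a stricter filter on low counts (0.54, adjusted p = 0.046, edgeR).

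The fibre genes proper did not separate in whole libraries. ODF1 had 1994 and 2909 CPM in WT and 2497 and 2271 CPM in Ctcf-cKO, a log2 difference of 0.019 ± 0.20. ODF2 had 2838 and 3519 CPM in WT and 3088 and 3180 CPM in Ctcf-cKO, a difference of 0.041 ± 0.17, and OAZ3 was at 0.038 ± 0.17. With library totals alone these 3 values turned to -0.038, -0.019 and -0.021. SMCP, with 4564 and 5447 CPM in WT and 4172 and 3724 CPM in Ctcf-cKO, was apart with both Ctcf-cKO mice lower (-0.28 ± 0.16, adjusted p = 0.220, edgeR), as was ODF4, with 2017 and 1444 counts in WT and 628 and 368 counts in Ctcf-cKO, where no WT mouse was under 297 CPM and no Ctcf-cKO mouse above 237 CPM (-0.29 ± 0.18, adjusted p = 0.260, edgeR). TCP11 stood at 1361 and 1758 CPM in WT and 1809 and 1659 CPM in Ctcf-cKO and overlapped. In all, 4 members were lower and 1 higher without overlap, where 35.8% and 32.3% of all genes were. These counts moved with single WT mice, since 4 members passed lower in Ctcf-cKO without WT replicate 1 (ODF3 -0.59, SMCP -0.46, ODF1 -0.28 and OAZ3 -0.18) and 5 passed higher without WT replicate 2 (CABS1 0.68, TCP11 0.41, ODF1 0.32, OAZ3 0.22 and ODF2 0.20). In the former fit 6.63% of all genes passed lower, and in the latter 16.5% passed higher. ODF1 and OAZ3 thus passed in opposite directions according to which WT mouse was left out.

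GPX4 (ENSMUSG00000075706, chr10:80047166-80056439, forward strand) could hardly be measured under its own name. Its row held 70 and 54 counts in WT and 25 and 14 counts in Ctcf-cKO, or 8.79 to 11.1 CPM. The row GPX4-PS2 held 3987 and 4070 counts in WT and 3053 and 1568 counts in Ctcf-cKO, which is 98.3% to 99.2% of the counts of both rows. Gpx4-ps2 (ENSMUSG00000110841, chr10:45875291-45876086, forward strand) is annotated as a transcribed processed pseudogene in 1 exon. Its transcript matched Gpx4 over 762 aligned bases with 2 mismatches, an identity of 99.738%, and the last 296 bases of the Gpx4 transcript, towards the end that 3′ libraries read, were identical. The differences are C348T and C663T, counted from 1 at the 5′ end of the Gpx4 transcript, in coding sequence of exons 3 and 6 of 7. The stretches around them are printed from GRCm38 on the forward strand, with the base that differs in capitals, because no other base tells the genes apart within the aligned part. For the first difference they are chr10:80054712-80054736 for GPX4 and chr10:45875443-45875467 for GPX4-PS2, and for the second chr10:80056045-80056069 and chr10:45875758-45875782.
GPX4, first: catcgtcaccaaCgtggcctcgcaa
GPX4-PS2, first: catcgtcaccaaTgtggcctcgcaa
GPX4, second: cattgataagaaCggctgcgtggtg
GPX4-PS2, second: cattgataagaaTggctgcgtggtg

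Because reads from such copies can be placed on either, the counts of these rows are uncertain as to their gene. None of the other 8 members had a copy of its last 300 bases with at least 95% identity over 250 bases, while Gpx4 had a further one, the processed pseudogene AC122253.3, with 95.066% identity over 304 bases and no row in the tables. The GPX4-PS2 row followed the stages in part, with a mean of 939 CPM in early, 1394 CPM in mid and 1274 CPM in late cells, and late levels were above early levels in 4 of 4 mice. In whole libraries it had 595 and 838 CPM in WT and 1151 and 984 CPM in Ctcf-cKO, and it rose by 0.64 ± 0.20 on the log2 scale (adjusted p = 0.035, edgeR). With both rows added, an alternative chosen after the values were seen, the levels were 605 and 849 CPM in WT and 1160 and 993 CPM in Ctcf-cKO and the difference was 0.63 ± 0.20 (adjusted p = 0.036, edgeR), while GPX4 alone gave -0.17 ± 0.50. Within the spermatid-like classes the added rows were at 0.49 in early, 0.20 in mid and 0.43 in late cells and did not pass. GPX4 alone was listed with 3 counts in late cells of WT replicate 1 and 0 in late cells of the other 3 mice, at or under the 3 counts that a count of 0 allows, and no fold is given.

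**Figure D4:**
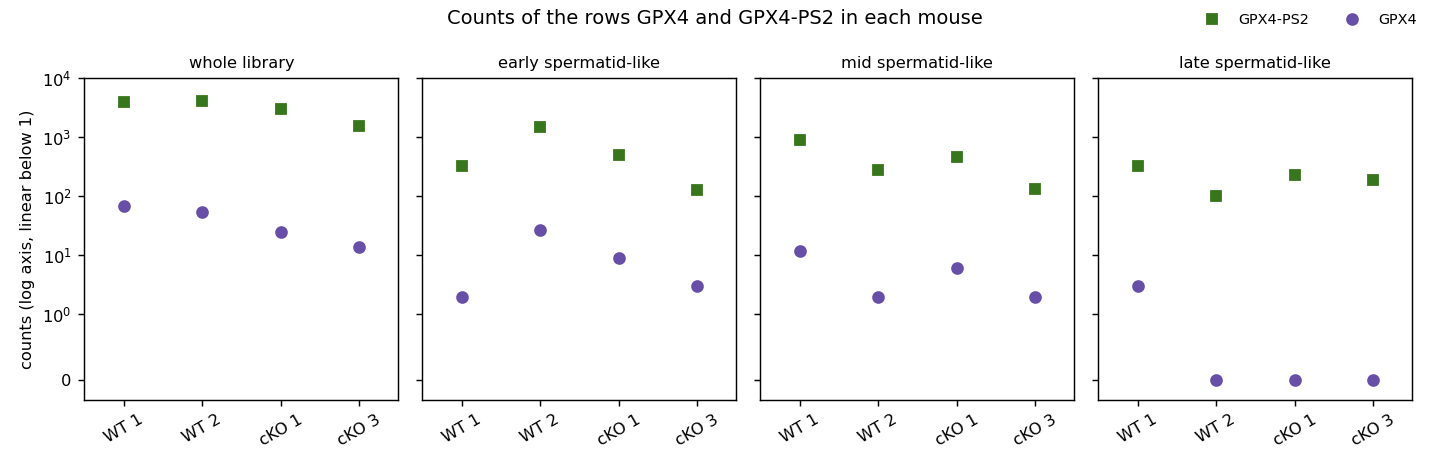
Counts of the GPX4 row (circles) and the GPX4-PS2 row (squares) in each mouse (x axis) for whole libraries and for early, mid and late spermatid-like cells, on a log y axis that is linear below 1. The squares lie far above the circles in every panel, at 1568 to 4070 counts against 14 to 70 in whole libraries, and in late cells 3 of 4 mice have no GPX4 count.

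Other genes of the sperm tail and head gave the members a frame in whole libraries. Of 21 further midpiece and outer dense fibre genes tested, 8 fell and 1 rose, with a median log2 difference of -0.54 against 0.019 for the members. Among those that fell were LRRC46, at 1031 and 842 CPM in WT and 418 and 411 CPM in Ctcf-cKO (-1.11 ± 0.17, adjusted p = 0.000768, edgeR), and the mitochondrial channel genes VDAC2 (-0.66 ± 0.17) and VDAC3 (-0.71 ± 0.22), named after their values were seen. The 1 that rose, PHB, also named afterwards, had 1.94 to 14.4 CPM. SPATA6, which acts in the neck of the sperm, stood at 1261 and 1278 CPM in WT and 1305 and 1173 CPM in Ctcf-cKO (0.030 ± 0.16), and SPEM1, which acts in shedding of spermatid cytoplasm, at 0.089 ± 0.19.

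Of 11 fibrous sheath genes, which encode the sleeve of the principal piece, 5 fell and 0 rose, with a median of -0.27. ROPN1L (-0.75 ± 0.15, adjusted p = 0.00399, edgeR) and LDHC, the sperm lactate dehydrogenase (-0.50 ± 0.14, adjusted p = 0.023, edgeR), fell, whereas GAPDHS, the sperm glycolytic enzyme, had 0.22 ± 0.22. Of 18 axoneme genes 11 fell and 0 rose, with a median of -0.88, and they included RSPH1 (-0.88 ± 0.18) and TEKT1 (-0.94 ± 0.21), while SPAG17 had -0.77 ± 0.32 (adjusted p = 0.089, edgeR). Of 11 acrosome genes 10 fell and 0 rose, with a median of -0.84, among them ACRV1 (-1.11 ± 0.18) and DKKL1 (-0.64 ± 0.16), and ACTL7A had -0.34 ± 0.18. The 5 genes of nuclear condensation had a median of 0.35, and TNP2, named because it alone passed, rose by 0.50 (adjusted p = 0.021, edgeR). PRM1 (0.46 ± 0.22), TNP1 (0.35 ± 0.17) and PRM2 (0.28 ± 0.17) had adjusted p of 0.131, 0.146 and 0.238 in edgeR. All genes tested had a median of -0.041. Most of these acrosome genes and all 5 genes of nuclear condensation were also among the markers used to name the spermatid clusters. For them too, fewer cells of a stage and less RNA per cell cannot be told apart in whole libraries.

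Within the spermatid-like classes these differences of the related genes were not detected. Of the same lists only TNP1 in mid cells passed, at 50632 and 43853 CPM in WT and 28995 and 23942 CPM in Ctcf-cKO (-0.89 ± 0.18, adjusted p = 0.019, edgeR). Over all spermatid-like cells 0 of the listed genes passed, and the medians were -0.22 for the members, -0.20 for further midpiece genes, -0.28 for the fibrous sheath, -0.33 for the axoneme, -0.28 for nuclear condensation and -0.34 for the acrosome. In whole libraries 36 genes of these lists passed. Fewer of them, and also a smaller share of all genes tested, passed when either Ctcf-cKO mouse was left out.

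**Figure D5:**
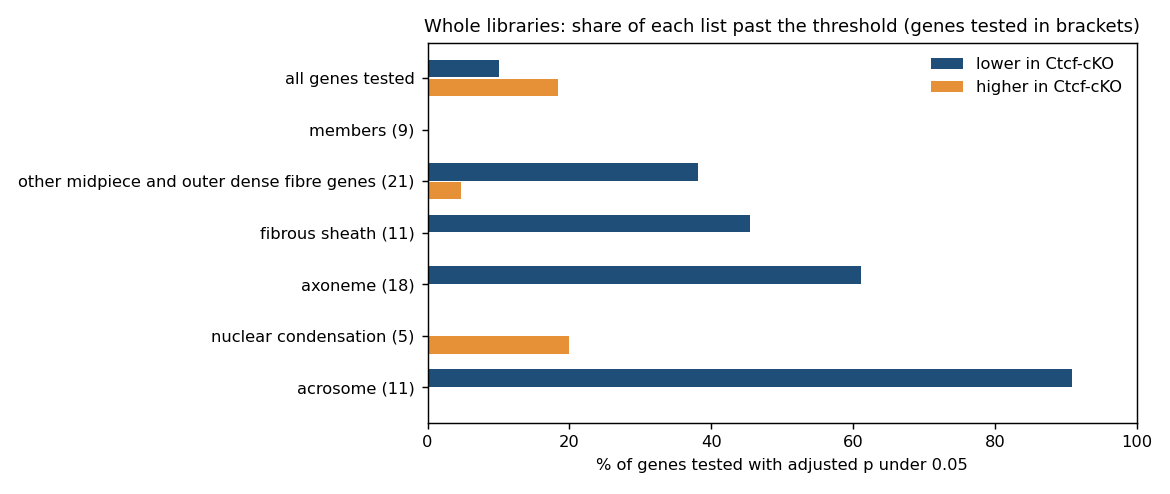
Share of the genes tested in whole libraries with an adjusted p under 0.05 in edgeR (x axis, %), lower (dark bars) and higher (light bars) in Ctcf-cKO, for all genes tested, the 9 members and each related list (y axis, genes tested in brackets). The members have no bar, all genes stand at 10.1% lower and 18.4% higher, and the share that is lower runs from 38.1% in further midpiece genes to 90.9% in acrosome genes.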

How the data were processed

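Single cell RNA-seq was performed by the authors on testis cells of 2 WT and 2 Ctcf-cKO mice with ddSEQ droplets and 3′ libraries, aligned to GRCm38 (the build also given in the submitters' processing notes). The deposited tables hold raw counts, 1 row per gene symbol and 1 column per barcode. The study states that the tables were made with default parameters after earlier reports, but its text names neither the counting tool nor how reads of one molecule were merged. Intervals cover counting error only. Columns of other samples were not present.

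The members, the gene lists and the tests were chosen with earlier results of these data known. Named genes were the 9 members, CTCF, at most 3 genes per related list with the most counts, and the 5 most similar genes. PHB, VDAC2, VDAC3, TNP2 and GPX4-PS2 were named outside this rule, after their values were seen. Barcodes with 200 to 7000 genes and at most 10% mitochondrial counts were taken as cells when they held at least 3 times the counts of the flat stretch of their library's rank curve. They were clustered in Seurat 5.3.0 under R 4.3.3 (15 components, resolution 0.9, batch correction as in Harmony), 1998 variable genes being used after 2 members were left out. Clusters with at least 3 markers were named. Pseudotime came from scanpy 1.11.5 in Python 3.11.15. Scrublet called 6 to 23 doublets per library, which were kept.

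Sums of counts over the cells of a class, where each mouse had 5 or more, were compared by edgeR 4.0.16 (TMM, filterByExpr, quasi-likelihood test, two-sided, Benjamini-Hochberg adjusted p of 0.05). The mouse was the replicate. Standard errors were derived from this test, as the size of the log2 difference divided by the square root of the F statistic. With 2 against 2 mice an exact permutation test gives no p below 0.333, and none was used. Alternatives were DESeq2 1.42.0, other normalizations and filters, other clusterings and cell limits, free RNA subtracted and each mouse left out. The scripts were tested on simulated counts. Coordinates came from GENCODE M21 on GRCm38, copies from BLAST 2.17.0, and promoters from RefSeq on GRCm38.p6. Protein sequences were not used here.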

Additional observations from a re-analysis of the deposited data

Results flagged for a closer look

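A signal appeared in a row outside the list of members. GPX4-PS2, the row of a processed copy of Gpx4, held 3987 and 4070 counts in the libraries of WT replicates 1 and 2 and 3053 and 1568 counts in those of Ctcf-cKO replicates 1 and 3, far above the 3 counts that a count of 0 allows and above the 14 to 70 counts of the GPX4 row. Which of Gpx4, this copy or the further copy AC122253.3 the reads came from was not tested, since reads were not analysed here. Groups of 2 mice are too small for a search for single outlying samples.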

How the results depend on the processing

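Under other settings 614 values of the members kept their direction and their side of the threshold, 51 changed sign and 15 passed it newly with the same sign. Values that passed the threshold with a changed sign are counted among the 51. The genes of the related lists are not in this tally. No label pairs a WT mouse with a Ctcf-cKO mouse, and no paired analysis was made. Fits without 1 mouse take the lone mouse of its genotype to vary like the others. Members past the threshold in them numbered 0 to 1 in mid, 0 to 4 in all spermatid-like cells and 0 to 5 in whole libraries, and genes of the related lists 5 to 51. In whole libraries 1 member passed with library totals alone, with no filter (ODF3), with at least 10 counts in every library (CABS1) and with GPX4 and GPX4-PS2 counted together. List genes past the threshold were 2 with barcodes under 200 genes only. Genes called in whole libraries were 4149, and 1711 to 4440 with 1 mouse left out, fewest without Ctcf-cKO replicate 1.

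Log2 differences that changed sign were near 0 or had wide errors, and the cause was not tested. Leaving out each mouse gave, in early cells, -0.88 to 0.54 (ODF1), -0.78 to 0.28 (ODF2), -1.25 to 0.071 (SMCP), -1.27 to 0.36 (OAZ3), -1.82 to 0.51 (CABS1) and -0.48 to 0.61 (TCP11). It gave -0.26 to 0.029 (ODF2), -0.28 to 0.69 (ODF3), -0.054 to 0.21 (ODF4) and -0.32 to 0.055 (OAZ3) in mid cells, and -1.04 to 0.34 (CABS1) and -0.57 to 0.42 (TCP11) in late cells. Over all spermatid-like cells it gave -0.44 to 0.048 (ODF2), -0.63 to 0.28 (CABS1), -0.098 to 0.42 (GPX4) and -0.059 to 0.27 (TCP11), and in whole libraries -0.28 to 0.32 (ODF1), -0.16 to 0.20 (ODF2), -0.18 to 0.22 (OAZ3) and -0.016 to 0.41 (TCP11).

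With library totals alone the values were 0.028 for ODF4 in early cells, 0.10 for ODF2 and 0.088 for OAZ3 in mid cells, and -0.038 for ODF1, -0.019 for ODF2 and -0.021 for OAZ3 in whole libraries, while the median of all genes moved from -0.0093 to 0.12 in mid and from 0.025 to 0.23 in late cells. Without a filter they were -0.15 (early), -0.16 (late) and -0.0037 (all) for TCP11, -0.10 for ODF4 in mid cells and -0.12, -0.098 and -0.10 for ODF1, ODF2 and OAZ3 in whole libraries. With at least 10 counts, mid cells gave 0.023 (ODF2) and 0.0074 (OAZ3). With free RNA subtracted, TCP11 was -0.11 in early and ODF2 0.45 and OAZ3 0.26 in mid cells. Barcodes with 200 to 7000 genes gave -0.087, -0.013 and -0.13 for ODF1, ODF2 and OAZ3. ODF4 was 0.011 in early cells and GPX4 -0.21 over all spermatid-like cells without batch correction, TCP11 -0.015 in late cells at a resolution of 1.3, and ODF4 -0.26 in mid cells with as many barcodes as the study counts. The largest moves came from subtracting free RNA, in fits where 0.0% of all genes tested passed the threshold. The share of free RNA could not be estimated above 100%, as in Ctcf-cKO replicate 1 in mid, late and all spermatid-like cells. GPX4 in whole libraries was 0.63 with both rows counted, chosen after seeing the data. Mid and late cells could not be compared without batch correction or at a resolution of 0.5, which left fewer than 5 cells in a mouse.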
